A study of Mus musculus with 143 samples.

Results

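The nuclear RNA exosome does not find its substrates alone, and 10 genes for its nuclear adaptors were followed here in mouse oocytes that lack 1 or both of its ribonucleases. The genes were chosen by known function, with earlier results of these data known. They are Mtrex (also called MTR4), the helicase, Zcchc8 and Rbm7 of the NEXT complex, and Zfc3h1 and Zc3h3 of the PAXT connection. Srrt (ARS2), Ncbp1 and Zc3h18 link adaptors to the RNA cap, and Mphosph6 and C1d are cofactors of the nuclear exosome. All 10 were found in the count files, which list 55573 gene IDs for the poly(A) assay and 55487 for the RiboMinus assay, and all 10 passed the filter on low counts in each fit.

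The exosome is a barrel of subunits that threads RNA to the ribonuclease DIS3, and in the nucleus it also carries EXOSC10. The helicase MTR4 unwinds RNA at its entrance. NEXT brings short, unprocessed transcripts such as promoter upstream RNAs to MTR4, PAXT brings longer polyadenylated nuclear RNAs, and ARS2 with ZC3H18 connects both to the cap-binding complex. A growing oocyte stores RNA, and a fully grown one is largely silent in transcription, so RNA decay weighs heavily in its transcriptome.

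Single oocytes came from control mice and from mutant mice made with CRISPR/Cas9 and labelled as conditional knockouts: of Dis3 alone or Exosc10 alone (cKO), or of the pair together (dcKO). The source of Cre is not named in the labels. Poly(A) RNA was sequenced from fully grown germinal vesicle oocytes (GV; 8 control and 15 Dis3 cKO libraries), from oocytes labelled GV3h after culture for 3 h (8 and 16) and from metaphase II eggs (MII; 8 and 16) of superovulated mice. RNA freed of ribosomal RNA (RiboMinus) was sequenced from adult GV oocytes (control and Dis3 cKO) and from oocytes labelled p20 (control, both single knockouts and dcKO), with 8 libraries per group. An animal's number is not given for poly(A) libraries, and RiboMinus titles carry 2 tags of 4 libraries in each group, so p-values measure the spread between oocytes, some of which may share an animal. Levels are CPM, each gene's count relative to all gene counts of its library after TMM scaling, on 1 scale per assay, given as mean ± SD over libraries. Fold changes, standard errors (SE) and p-values come from quasi-likelihood fits in edgeR, adjusted by Benjamini-Hochberg over all genes tested, and a gene is said to have risen or fallen where adjusted p was under 0.05. Levels were not compared between genes because transcript lengths were not at hand.

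Gene counts ranged from 4843964 to 15412200 in the 71 poly(A) libraries and from 8492102 to 35429028 in the 48 RiboMinus libraries. The targeted genes followed the labels: group means of Dis3 lay between 0.76 and 2.88 CPM in knockouts of Dis3 and between 9.70 and 16.5 CPM elsewhere, and Exosc10 means lay at 3.13 and 7.26 CPM in its 2 knockouts and at 83.6 CPM or above elsewhere. All 10 oocyte markers were above 1 CPM in every group, with sums from 7907 to 25810 CPM per library. The 10 granulosa and cumulus markers summed to between 50.2 and 216 CPM, theca and stroma markers to at most 9.02 CPM and blood markers to at most 1.17 CPM. At MII the granulosa and cumulus sums ran from 105 to 147 CPM in controls and from 60.7 to 101 CPM in Dis3 cKO, without overlap. The ranges overlapped in the other comparisons of a knockout with its control, among them GV3h (72.9 to 110 against 50.2 to 92.7 CPM). Whether gene changes at MII or GV3h go with these sums was not tested. In 4 poly(A) Dis3 cKO libraries the correlation with the median of their own group was under 0.95 (GV numbers 6 and 8, MII numbers 7 and 15), and GV Dis3 cKO number 16 was closest to the GV3h Dis3 cKO group. Results were also computed without these libraries, and calls lost or gained that way are given below.

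RefSeq windows before the start site were at hand for 9 of the 10 genes (GRCm38.p6), all except Zc3h3. Of these, 3 are printed because their genes carry the contrast described below: Srrt, the gene that was higher in every knockout, and Mtrex and Zcchc8, which were lower in the double knockout. Capitals mark CG dinucleotides. Bases inside the annotated span of the gene itself were left out, which shortens the Srrt window to 208 bases.
Srrt, chr5:137307717-137307924, minus strand: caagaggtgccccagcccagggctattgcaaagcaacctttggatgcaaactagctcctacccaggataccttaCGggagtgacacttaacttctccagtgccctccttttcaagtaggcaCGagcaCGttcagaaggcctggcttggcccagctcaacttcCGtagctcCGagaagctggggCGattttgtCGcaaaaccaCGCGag
Mtrex, chr13:112927381-112927630, minus strand: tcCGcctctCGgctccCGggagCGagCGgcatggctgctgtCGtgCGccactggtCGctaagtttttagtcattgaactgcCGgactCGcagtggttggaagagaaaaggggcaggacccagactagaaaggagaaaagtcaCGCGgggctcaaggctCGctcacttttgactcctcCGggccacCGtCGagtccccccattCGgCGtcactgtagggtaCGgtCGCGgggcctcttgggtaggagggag
Zcchc8, chr5:123721045-123721294, minus strand: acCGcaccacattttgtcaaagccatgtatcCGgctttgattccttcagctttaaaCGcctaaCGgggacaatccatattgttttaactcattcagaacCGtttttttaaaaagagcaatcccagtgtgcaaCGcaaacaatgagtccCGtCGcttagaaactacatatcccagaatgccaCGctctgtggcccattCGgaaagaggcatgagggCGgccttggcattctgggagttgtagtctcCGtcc
Counted over all 250 bases before the start, the Srrt and Zcchc8 windows each hold 12 CG dinucleotides and the Mtrex window holds 21, against a median of 6 over 32851 promoters. Searched on both strands with plain letters, GGGCGG was in the windows of 5 genes (Zcchc8, Ncbp1, Zc3h18, Mphosph6 and C1d; 32.7% of all promoters) and CCGGAA in 4 (Rbm7, Zfc3h1, Ncbp1 and Zc3h18; 12.03% of all promoters). The letters TATAAA were in none of the 9 windows, against 12.4% of all promoters. CCAAT was in none either, against 33.9%, and neither was the E-box CACGTG, against 6.02%, nor the octamer ATGCAAAT, against 1.60%. The Srrt and Mtrex windows held none of these motifs.

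Srrt (ENSMUSG00000037364, chr5:137295704-137307716), which encodes the cap-linked adaptor ARS2, rose in all 7 comparisons of a knockout with its control, between 0.55 and 2.31 on the log2 scale. In GV oocytes Srrt lay at 12.3, 26.7 and 36.7 CPM (lowest, median and highest) in controls and at 55.4, 93.2 and 180 CPM in Dis3 cKO. After 3 h it lay at 24.1, 28.0 and 33.4 CPM in controls and at 118, 144 and 164 CPM in Dis3 cKO. In MII eggs it lay at 12.3, 15.6 and 19.4 CPM in controls and at 6.74, 54.7 and 91.1 CPM in Dis3 cKO. The groups did not overlap at GV and GV3h, and at MII 15 of 16 knockout eggs were above every control, the exception being number 15. The log2 fold change was 1.79 (SE 0.21, adjusted p = 1.77e-10) at GV, 2.31 (SE 0.21, adjusted p = 2.42e-14) at GV3h and 1.70 (SE 0.21, adjusted p = 2.78e-10) at MII. The difference between stages in this effect did not pass the test (GV3h minus GV 0.52, SE 0.27, adjusted p = 0.366; MII minus GV -0.09, SE 0.27, adjusted p = 0.875).

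In RiboMinus libraries, which do not select for a poly(A) tail, Srrt rose in adult Dis3 cKO oocytes and in each knockout at p20. Adult GV oocytes held 29.1, 34.1 and 48.1 CPM in controls and 69.9, 142 and 174 CPM in Dis3 cKO, without overlap, for a log2 fold change of 1.85 (SE 0.20, adjusted p = 3.88e-06). The 2 title tags of the adult knockout differed: the 4 libraries of AM1713 lay at 170.6 ± 3.08 CPM and the 4 of AM1757 at 87.8 ± 20.9 CPM, while the control tags lay at 35.7 ± 3.81 and 37.5 ± 8.51 CPM. Without AM1713 the log2 fold change was 1.25 (adjusted p = 1.63e-05), and without AM1757 it was 2.24 (adjusted p = 5.98e-09). With libraries summed per tag, 2 sums per group, it was 1.79 with adjusted p = 0.125, in a fit that called 0 of 20190 genes (3577 before adjustment, at 0.05).

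At p20, Srrt stood lowest in controls, higher in both single knockouts and highest in the dcKO. Controls held 37.5, 39.8 and 47.5 CPM. Dis3 cKO oocytes held 48.4, 55.1 and 74.6 CPM, Exosc10 cKO oocytes 54.9, 67.4 and 78.5 CPM, and dcKO oocytes 89.7, 106 and 137 CPM. No knockout group overlapped the controls, the 2 single knockouts overlapped each other, and the dcKO overlapped neither. The log2 fold change over controls was 0.55 (SE 0.10, adjusted p = 0.000272) in Dis3 cKO, 0.71 (SE 0.10, adjusted p = 6.78e-06) in Exosc10 cKO and 1.42 (SE 0.10, adjusted p = 7.98e-13) in dcKO. The dcKO exceeded Dis3 cKO by 0.88 (SE 0.10, adjusted p = 1.44e-08) and Exosc10 cKO by 0.71 (SE 0.10, adjusted p = 6.02e-07). The Dis3 effect was larger in adult GV than at p20 by 1.27 (SE 0.20, adjusted p = 1.43e-05). That difference was 0.72 (adjusted p = 0.00784) without AM1713 and 1.70 (adjusted p = 3.8e-11) without AM1757, and in sums per tag it was 1.21 and did not pass (adjusted p = 0.195). Of the rises, that of p20 Dis3 cKO did not pass the test when libraries were scaled to the added ERCC RNA (0.24, adjusted p = 0.385, with the median over all genes at -0.31) or summed per tag (0.57, adjusted p = 0.081).

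**Figure D1:**
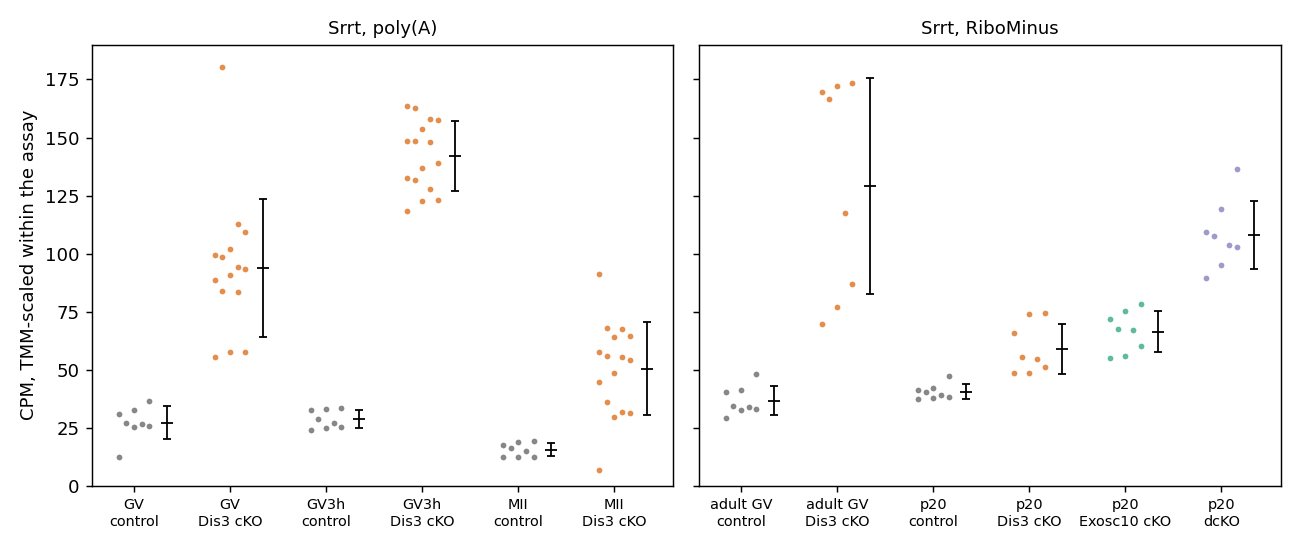
Srrt level in each library (points, CPM after TMM scaling within the assay) with mean and SD (black) in 6 poly(A) groups and 6 RiboMinus groups. In each pair the knockout oocytes lie above their controls, apart from 1 MII Dis3 cKO egg at 6.74 CPM, and the adult Dis3 cKO libraries fall into 2 tags at 170.6 and 87.8 CPM on average.

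Across all 10 genes, Srrt and Zfc3h1 made up most of the rises in single knockouts, and Ncbp1 and C1d rose in both dcKO and GV3h Dis3 cKO. In poly(A) GV oocytes 3 of 10 changed in Dis3 cKO, where 21.9% of 17389 genes did: 2 rose (13.6% of all genes) and 1 fell (8.33%). At GV3h 6 of 10 changed, against 38.6% of all genes: 4 rose (22.9%) and 2 fell (15.7%). At MII 5 of 10 changed, against 42.1%: 4 rose (27.3%) and 1 fell (14.8%). In adult RiboMinus oocytes 2 of 10 changed in Dis3 cKO, where 28.1% of 15334 genes did: both rose (15.7%), and none fell (12.4%). At p20 1 of 10 rose in Dis3 cKO, where 7.37% of 15882 genes changed (3.61% higher, 3.76% lower). In Exosc10 cKO 2 of 10 rose, where 7.45% of genes changed (3.95% higher, 3.50% lower). In dcKO 7 of 10 changed, against 53.7% of all genes: 4 rose (26.6%) and 3 fell (27.1%). With 10 genes, each is 10% of the set, and these counts lie too near the shares of all genes to set the adaptors apart as a group. The p20 comparisons of a knockout with controls share the same 8 control libraries. The median log2 fold change of the 10 genes lay between -0.08 and 0.18 in these 7 comparisons, beside medians of all genes between -0.01 and 0.16.

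**Figure D2:**
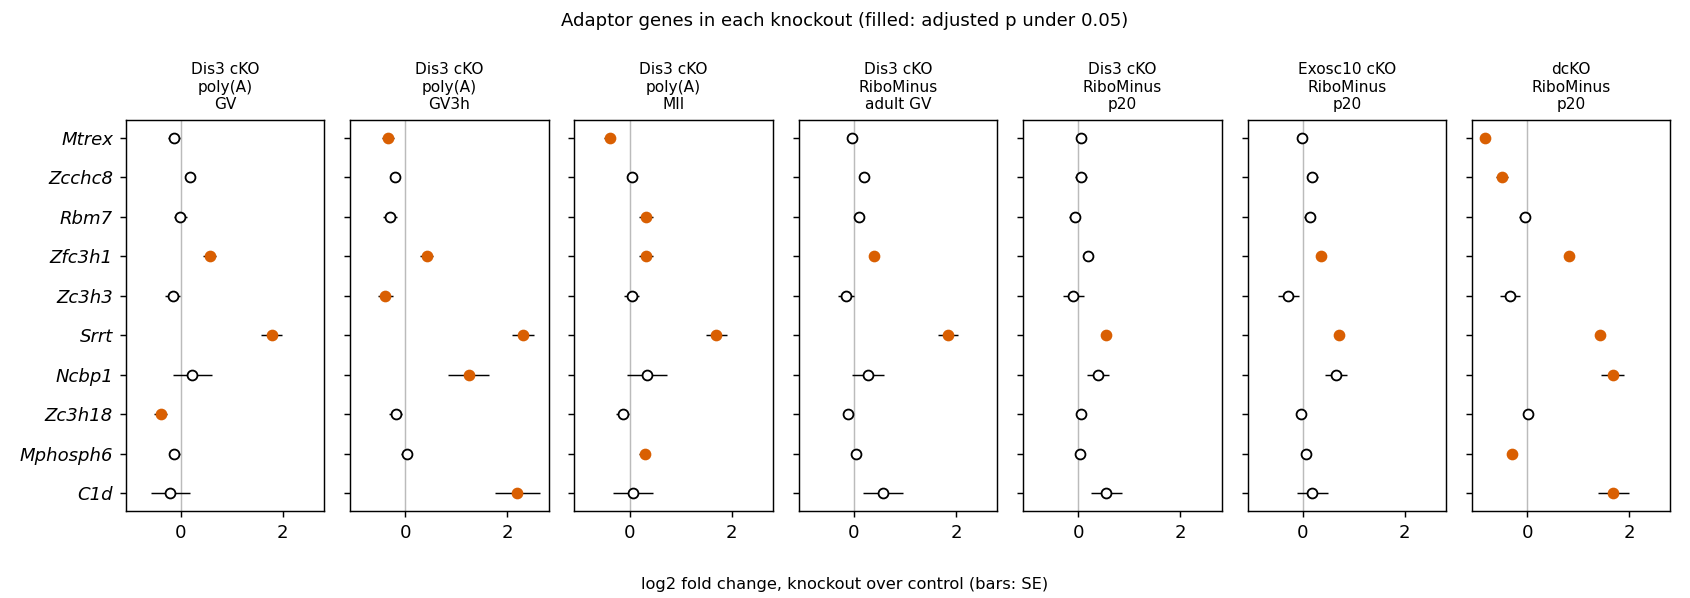
Log2 fold change of each adaptor gene, knockout over control, with SE bars, in the 7 comparisons; filled points have an adjusted p under 0.05. Srrt is filled in all 7 and Zfc3h1 in 6, though its adult value turned negative with ERCC scaling, and the other genes are filled in at most 3.

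Mtrex (ENSMUSG00000016018, chr13:112867780-112927380), the helicase on which both NEXT and PAXT act, fell in dcKO and in 2 of the 3 poly(A) stages. At p20 it lay at 80.1, 94.3 and 106 CPM in controls (lowest, median and highest), at 86.0, 95.2 and 111 CPM in Dis3 cKO and at 77.4, 89.6 and 111 CPM in Exosc10 cKO. In dcKO it lay at 43.2, 51.2 and 68.7 CPM, below every oocyte of the other 3 groups. The log2 fold change in dcKO was -0.82 (SE 0.09, adjusted p = 3.42e-09), beside 0.06 (SE 0.09, adjusted p = 0.784) in Dis3 cKO and -0.01 (SE 0.09, adjusted p = 0.953) in Exosc10 cKO. The dcKO was also lower than Dis3 cKO (-0.88, SE 0.09, adjusted p = 1e-09) and than Exosc10 cKO (-0.80, SE 0.09, adjusted p = 7.52e-09).

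In poly(A) libraries Mtrex averaged 111 ± 13.6 CPM in GV controls and 102 ± 22.7 CPM in GV Dis3 cKO, which did not pass the test (-0.13, SE 0.11, adjusted p = 0.467). It fell at GV3h, with 108 ± 16.1 CPM in controls and 85.7 ± 10.5 CPM in Dis3 cKO (-0.34, SE 0.11, adjusted p = 0.0132). It also fell at MII, with 75.7 ± 17.1 and 57.6 ± 11.03 CPM (-0.39, SE 0.11, adjusted p = 0.00346). The groups overlapped at each stage, with 11 of 16 knockout oocytes below every control at GV3h and 8 of 16 at MII. Neither of these falls passed the test with ERCC scaling (-0.34, adjusted p = 0.151; -0.05, adjusted p = 0.852) or when knockout libraries were kept to title numbers 1 to 8 (-0.28, adjusted p = 0.107; -0.28, adjusted p = 0.116). In adult RiboMinus oocytes it held 85.4 ± 7.11 CPM in controls and 82.3 ± 13.5 CPM in Dis3 cKO (-0.03, SE 0.09, adjusted p = 0.822), but with ERCC scaling it was lower in Dis3 cKO (-0.61, adjusted p = 0.00522), beside a median over all genes of -0.52 on that scale.

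Zcchc8 (ENSMUSG00000029427, chr5:123698302-123721044), the zinc-knuckle scaffold of NEXT, fell in dcKO oocytes. It did not pass the test in any single knockout in the main edgeR fits, though it did in some alternatives given below. At p20 it lay at 270 to 443 CPM in controls, 268 to 474 CPM in Dis3 cKO, 325 to 533 CPM in Exosc10 cKO and 190 to 276 CPM in dcKO. The dcKO range met the lower end of the controls, with 5 of 8 oocytes below every control, and lay below every Exosc10 cKO oocyte. The log2 fold change was -0.49 against controls (SE 0.11, adjusted p = 0.000455), -0.55 against Dis3 cKO (SE 0.11, adjusted p = 0.000156) and -0.68 against Exosc10 cKO (SE 0.11, adjusted p = 8.66e-06). With ERCC scaling the difference from Dis3 cKO was -0.29 and did not pass the test (adjusted p = 0.181). In the Dis3 cKO groups of the other sets its fold changes ran from -0.21 (GV3h, SE 0.09, adjusted p = 0.0725) to 0.20 (adult, SE 0.09, adjusted p = 0.103; -0.38 with ERCC scaling). Some of these passed in an alternative. Without the 4 libraries unlike their group Zcchc8 was higher at GV (0.24, adjusted p = 0.0386) and lower at GV3h (-0.21, adjusted p = 0.04), and the difference between these stages passed as well (-0.44, adjusted p = 0.0218). The GV3h fall also passed with its 2 groups fitted alone (-0.22, adjusted p = 0.0369) and without GV control library 1 (-0.26, adjusted p = 0.0236), and the adult rise passed without tag AM1713 (0.33, adjusted p = 0.00849).

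Rbm7 (ENSMUSG00000042396, chr9:48488697-48495330), the RNA-binding subunit that pairs with ZCCHC8, passed the test in 1 of the 7 knockout comparisons, and calls of it depended on the setting. Its p20 means were 120.4 ± 17.3 CPM in controls, 114 ± 14.9 in Dis3 cKO, 132 ± 24.8 in Exosc10 cKO and 115 ± 17.4 in dcKO, and all ranges overlapped. The 1 call was in MII eggs, with 117 ± 30.5 CPM in controls and 146 ± 35.8 CPM in Dis3 cKO (0.32, SE 0.13, adjusted p = 0.0493). This call was lost with RLE scaling, with DESeq2, without the low-count filter, with the 2 groups fitted alone and without GV control library 1, at adjusted p between 0.0738 and 0.192, and it stood at adjusted p = 0.05 without GV control library 2. With ERCC scaling the MII rise was 0.77 (adjusted p = 0.0021), beside a median over all genes of 0.52. At GV3h its fold change was -0.30 (SE 0.13, adjusted p = 0.0638). That fall passed in 5 alternatives: with the 2 groups fitted alone (adjusted p = 0.00292), without the 4 libraries unlike their group (adjusted p = 0.00954), without GV control library 1 (adjusted p = 0.0242), and with title numbers 1 to 8 with or without the number as a block (adjusted p = 0.0318 and 0.0345). In adult Dis3 cKO its fold change was 0.10 (SE 0.10, adjusted p = 0.507) but -0.50 with ERCC scaling (adjusted p = 0.0119). The adult median over all genes was -0.52 on that scale.

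Zfc3h1 (ENSMUSG00000034163, chr10:115384799-115432772), the zinc-finger protein at the core of PAXT, rose in 6 of the 7 knockout comparisons, Dis3 cKO at p20 being the exception. In GV oocytes it lay at 47.1, 52.2 and 68.7 CPM in controls and at 54.5, 87.1 and 94.9 CPM in Dis3 cKO (lowest, median and highest). At p20 it lay at 64.0, 82.0 and 94.1 CPM in controls, 78.2, 91.8 and 106 CPM in Dis3 cKO, 70.7, 106 and 130 CPM in Exosc10 cKO and 131, 144 and 158 CPM in dcKO. The dcKO overlapped none of the other 3 groups, whereas 13 of 15 GV knockout oocytes were above every GV control.

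The log2 fold change of Zfc3h1 in Dis3 cKO was 0.56 at GV (SE 0.14, adjusted p = 0.00109), 0.42 at GV3h (SE 0.13, adjusted p = 0.00973), 0.33 at MII (SE 0.13, adjusted p = 0.0414) and 0.38 in adult RiboMinus oocytes (SE 0.08, adjusted p = 0.00165). At p20 it was 0.19 in Dis3 cKO (SE 0.10, adjusted p = 0.259), 0.35 in Exosc10 cKO (SE 0.10, adjusted p = 0.018) and 0.82 in dcKO (SE 0.10, adjusted p = 1.59e-08). The dcKO was above Dis3 cKO by 0.63 (SE 0.10, adjusted p = 2.01e-06) and above Exosc10 cKO by 0.47 (SE 0.10, adjusted p = 0.000138; 0.39 with adjusted p = 0.14 with ERCC scaling). With ERCC scaling the rises at GV (0.29, adjusted p = 0.266), at GV3h (0.37, adjusted p = 0.13) and in Exosc10 cKO (0.37, adjusted p = 0.539) did not pass the test, and in adult oocytes the sign turned (-0.13, adjusted p = 0.606), where that scaling moved the median over all genes from 0.03 to -0.52. The MII rise did not pass with RLE scaling, with DESeq2, without the low-count filter, with the 2 groups fitted alone or without GV control library 1 (adjusted p between 0.0643 and 0.161). Scaled to ERCC RNA it was 0.66 (adjusted p = 0.00295), beside a median over all genes of 0.52. In sums per tag the adult (0.35, adjusted p = 0.212) and Exosc10 cKO (0.34, adjusted p = 0.231) rises did not pass.

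Zc3h3 (ENSMUSG00000075600, chr15:75754430-75842061), another zinc-finger partner of PAXT, was measured at low counts, with a median of 74 reads per poly(A) library and 156 per RiboMinus library. It fell at GV3h, from 8.00 ± 1.81 to 6.11 ± 1.37 CPM (-0.39, SE 0.15, adjusted p = 0.0333), with overlapping groups, and this fall did not pass the test with ERCC scaling (adjusted p = 0.131) or without the low-count filter (adjusted p = 0.0812), nor with title numbers 1 to 8 alone (adjusted p = 0.134). In the other 6 knockout comparisons it did not pass, with fold changes from -0.34 (dcKO, SE 0.20, adjusted p = 0.163) to 0.04 (MII, SE 0.15, adjusted p = 0.853). With ERCC scaling it was lower in adult Dis3 cKO (-0.68, adjusted p = 0.0187), beside a median over all genes of -0.52.

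Ncbp1 (ENSMUSG00000028330, chr4:46138511-46172403), the large subunit of the nuclear cap-binding complex, rose in dcKO and in GV3h Dis3 cKO oocytes. It is thinly covered in poly(A) libraries (median 44 reads, lowest 1) and better in RiboMinus libraries (median 244.5 reads, lowest 63). At p20 it lay at 5.91, 12.4 and 16.6 CPM in controls, 8.60, 15.1 and 25.5 CPM in Dis3 cKO, 11.5, 18.4 and 26.7 CPM in Exosc10 cKO and 24.4, 38.8 and 51.6 CPM in dcKO. Every dcKO oocyte was above every control, and 7 of 8 were above every oocyte of each single knockout.

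The log2 fold change of Ncbp1 was 1.67 in dcKO (SE 0.22, adjusted p = 8.25e-08), 0.65 in Exosc10 cKO (SE 0.21, adjusted p = 0.0517; called by DESeq2 at 0.0258) and 0.39 in Dis3 cKO (SE 0.21, adjusted p = 0.309). The dcKO exceeded Dis3 cKO by 1.28 (SE 0.21, adjusted p = 7.43e-06) and Exosc10 cKO by 1.02 (SE 0.21, adjusted p = 0.000157). At GV3h it rose from 4.19 ± 2.27 to 9.97 ± 6.93 CPM (1.25, SE 0.40, adjusted p = 0.00997), with 6 of 16 knockout oocytes above every control. At GV (0.23, SE 0.39, adjusted p = 0.736), at MII (0.35, SE 0.39, adjusted p = 0.501) and in adult oocytes (0.28, SE 0.32, adjusted p = 0.563) no change passed the test.

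Zc3h18 (ENSMUSG00000017478, chr8:122376564-122417365), which joins ARS2 and the cap-binding complex to NEXT and PAXT, fell in GV Dis3 cKO oocytes from 49.2 ± 10.3 to 37.5 ± 7.81 CPM (-0.39, SE 0.13, adjusted p = 0.0171). There, 5 of 15 knockout oocytes were below every control. With libraries numbered 1 to 8 alone the fall was -0.32 with adjusted p = 0.0943. At p20 its means were 127 ± 9.75 CPM in controls, 131 ± 12.8 in Dis3 cKO, 124 ± 17.2 in Exosc10 cKO and 128 ± 11.8 in dcKO, with fold changes from -0.03 to 0.05. The 3 cap-linked genes therefore differed in dcKO: Srrt and Ncbp1 rose, and the change of Zc3h18 was 0.02 (SE 0.08, adjusted p = 0.817). In adult Dis3 cKO Zc3h18 changed by -0.11 (SE 0.08, adjusted p = 0.298), and by -0.61 with ERCC scaling (adjusted p = 0.0249). The adult median over all genes was -0.52 on that scale.

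Mphosph6 (ENSMUSG00000031843, chr8:117791637-117801974), a small RNA-binding cofactor that helps to dock MTR4 on the exosome, fell in dcKO from 343 ± 41.6 to 277 ± 35.5 CPM (-0.30, SE 0.08, adjusted p = 0.00284). In dcKO 4 of 8 oocytes were below every control. It was also lower in dcKO than in Dis3 cKO (-0.32, SE 0.08, adjusted p = 0.0016) and than in Exosc10 cKO (-0.37, SE 0.08, adjusted p = 0.000438). The fall against controls did not pass the test with ERCC scaling (-0.36, adjusted p = 0.0688) or in sums per tag (-0.31, adjusted p = 0.0577), and the fall against Dis3 cKO did not with ERCC scaling (-0.07, adjusted p = 0.761). ERCC scaling also gave falls in Dis3 cKO that were not called otherwise, at GV (-0.40, adjusted p = 0.0453) and in adult oocytes (-0.52, adjusted p = 0.0132). The medians over all genes on that scale were -0.23 at GV and -0.52 in adult oocytes.

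In MII eggs Mphosph6 rose with loss of Dis3, from 1831 ± 146 to 2249 ± 607 CPM (0.30, SE 0.11, adjusted p = 0.0201), with 11 of 16 knockout eggs above every control. The highest egg, at 4159 CPM, was number 15, the one with the lowest Srrt. Without it the change was 0.21 (adjusted p = 0.0564), and the call was also lost without the low-count filter (adjusted p = 0.0812), with the 2 groups fitted alone (adjusted p = 0.1) and with title numbers 1 to 8 (adjusted p = 0.141). The effect of Dis3 loss was larger at MII than at GV by 0.42 (SE 0.15, adjusted p = 0.0491), the only member of 10 to pass where 13.2% of all genes did (9.28% higher, 3.88% lower). Without egg 15 that difference was 0.34 (adjusted p = 0.0648), and it lost its call in 10 alternatives in all. With ERCC scaling the MII rise was 0.57 (adjusted p = 0.00166) and the difference from GV 0.97 (adjusted p = 0.000394), beside medians over all genes of 0.52 and 0.68.

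C1d (ENSMUSG00000000581, chr11:17257547-17269176), a cofactor that binds EXOSC10 with its partners, had few reads, with medians of 45 in poly(A) and 99.5 in RiboMinus libraries. In GV3h oocytes it lay at 1.09, 2.78 and 3.16 CPM in controls and at 3.53, 9.75 and 23.7 CPM in Dis3 cKO, without overlap (2.20, SE 0.43, adjusted p = 3.28e-05). At p20 it lay at 2.28, 5.34 and 12.3 CPM in controls and at 10.6, 17.6 and 31.5 CPM in dcKO (1.69, SE 0.31, adjusted p = 2.18e-05). In dcKO 7 of 8 oocytes were above every control.

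The dcKO exceeded Dis3 cKO in C1d by 1.14 (SE 0.30, adjusted p = 0.00206) and Exosc10 cKO by 1.498 (SE 0.31, adjusted p = 0.000127), while against controls neither single knockout passed the test (0.55, SE 0.30, adjusted p = 0.32 in Dis3 cKO; 0.19, SE 0.30, adjusted p = 0.785 in Exosc10 cKO). The effect of Dis3 loss at GV3h exceeded that at GV by 2.40 (SE 0.57, adjusted p = 0.0117), the only member of 10 to pass where 2.04% of all genes did (1.37% higher, 0.667% lower). That value rests in part on GV controls that were spread from 1.60 to 21.6 CPM: without the highest, library 2, the difference was 1.85 with adjusted p = 0.0816. The rise within GV3h was 2.20 (adjusted p = 1.39e-05) without that library. Over all genes, the GV3h minus GV effect was called for 355 of 17389. It was called for 141 of 17632 without GV control library 2 and for 830 of 17216 without the 4 libraries unlike their group. In adult oocytes C1d lay at 5.16 ± 2.12 CPM in tag AM1713 and 1.93 ± 0.48 CPM in tag AM1757, beside 2.44 ± 1.22 CPM in controls. The adult change was 0.56 and did not pass (SE 0.39, adjusted p = 0.305), while without AM1757 it was 1.10 and passed (adjusted p = 0.0379) and without AM1713 it was -0.35 (adjusted p = 0.598).

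**Figure D3:**
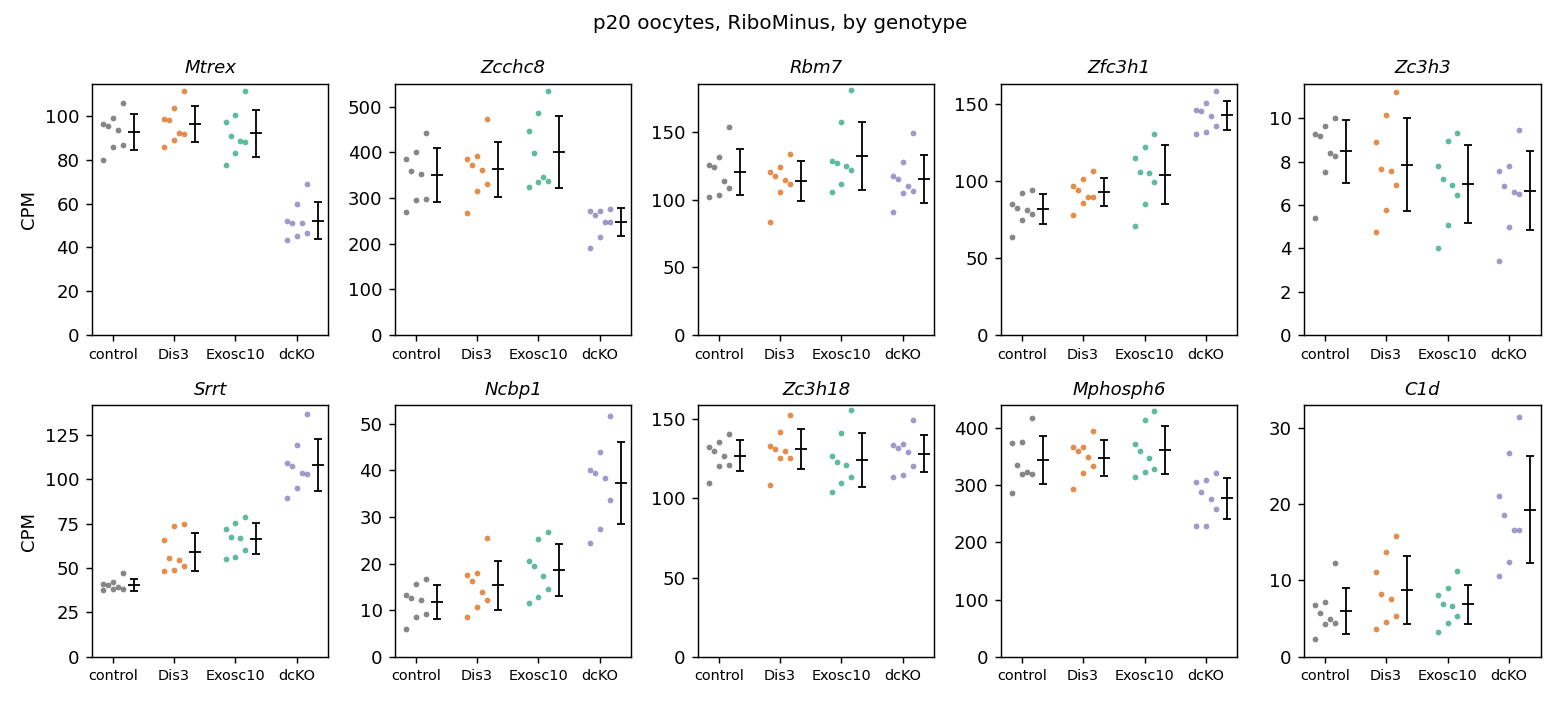
Level of each adaptor gene (CPM after TMM scaling) in p20 RiboMinus libraries of 4 genotypes, 8 libraries each, with mean and SD (black). The dcKO oocytes lie apart from all controls for Srrt, Ncbp1 and Zfc3h1 above and for Mtrex below, and Zc3h18 and Rbm7 overlap in every genotype.

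In dcKO 7 of the 10 genes differed from control and from both single knockouts: Mtrex, Zcchc8 and Mphosph6 were lower, and Zfc3h1, Srrt, Ncbp1 and C1d were higher, in each of its comparisons with control, Dis3 cKO and Exosc10 cKO. The comparison of dcKO with Dis3 cKO changed 51.5% of all genes (26.0% rose, 25.5% fell), and that with Exosc10 cKO changed 49.2% (24.2% rose, 25.0% fell), so that changes were common among all genes there. The share of all genes that passed in the same direction in each of these dcKO comparisons is not given here, so the 7 cannot be set against it. With ERCC scaling Zcchc8 (adjusted p = 0.181) and Mphosph6 (adjusted p = 0.761) lost their calls against Dis3 cKO, Zfc3h1 (adjusted p = 0.14) lost its call against Exosc10 cKO, and Mphosph6 (adjusted p = 0.0688) against control. These comparisons share the dcKO libraries. Rbm7, Zc3h3 and Zc3h18 passed in none of them.

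Stage was compared in control oocytes. Between GV and GV3h 0 of 10 genes passed edgeR's adjusted threshold, where 2.71% of all genes did (1.14% higher, 1.56% lower), and DESeq2 called 0 as well. That share of all genes depended on the setting. It was 471 of 17389 genes here, 226 of 17632 without GV control library 2 and 2083 of 13785 with only the groups compared in the fit. C1d alone had an unadjusted p under 0.05, with 6.62 ± 7.02 CPM at GV and 2.49 ± 0.77 CPM at GV3h (-1.41, SE 0.46, adjusted p = 0.0812). From GV to MII 7 of 10 changed, against 58.5% of all genes: 5 rose (22.7%) and 2 fell (35.8%), and for the 5 that rose the direction turned with ERCC scaling. On that scale all 10 were lower at MII, as were 15217 of 17389 genes, with Rbm7 (-2.19), Ncbp1 (-2.66) and C1d (-2.70) newly past the threshold. Rbm7 did not pass (-0.33, SE 0.15, adjusted p = 0.06), though it did in 6 alternatives, among them without the 4 libraries unlike their group (-0.33, adjusted p = 0.00984).

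On the CPM scale, Mphosph6 rose from 661 ± 50.7 to 1831 ± 146 CPM (1.47, SE 0.12, adjusted p = 5.56e-17) and Zcchc8 from 278 ± 53.0 to 544 ± 67.8 CPM (0.97, SE 0.11, adjusted p = 4.47e-12), both without overlap, and both fell with ERCC scaling (-0.39 and -0.87). Zfc3h1 (0.75), Zc3h18 (0.65) and Zc3h3 (0.48) also rose on the CPM scale and fell with ERCC scaling (-1.10, -1.21 and -1.38). Mtrex (-0.56, SE 0.13, adjusted p = 0.000218) and Srrt (-0.80, SE 0.22, adjusted p = 0.00141) fell on both scales. ERCC scaling moved the median over all genes from -0.27 to -2.12, with 137 ± 16.1 reads on genes for each ERCC read in GV controls and 46.0 ± 3.43 in MII controls. Against that median, Mtrex (-2.42) and Srrt (-2.68) lay below it and Mphosph6, Zcchc8, Zfc3h1, Zc3h18 and Zc3h3 above it. Poly(A) libraries measure RNA caught by its tail, so a change in tail length and a change in the amount of RNA cannot be told apart.

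**Figure D4:**
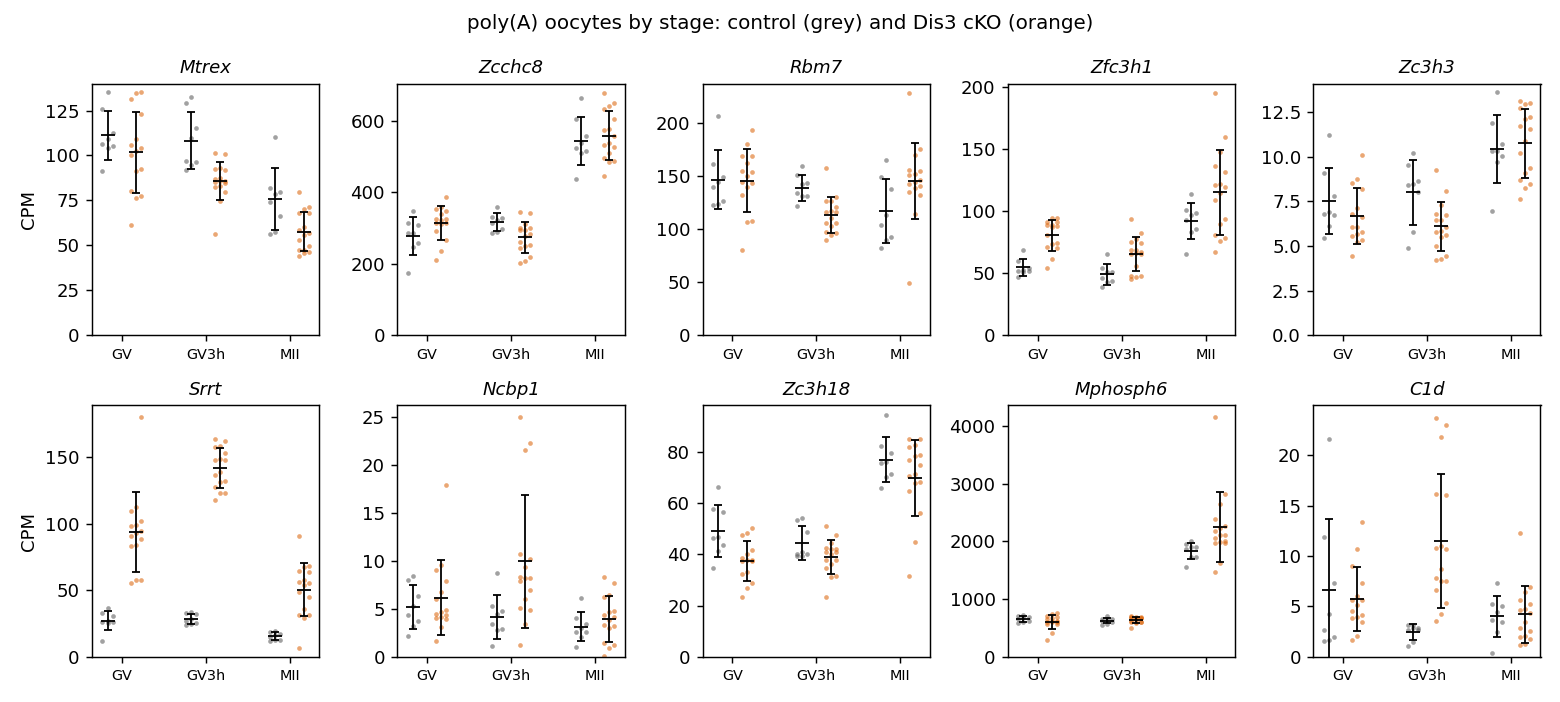
Level of each adaptor gene (CPM after TMM scaling) in poly(A) libraries at GV, GV3h and MII for control (grey) and Dis3 cKO (orange), with mean and SD (black). Srrt is apart between genotypes at GV and GV3h, Mphosph6 and Zcchc8 are highest at MII on this scale, though in controls both were lower at MII than at GV with ERCC scaling, and C1d is spread over GV controls, so that its SD bar reaches below the axis.

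Adult and p20 controls differed in 5 of 10 genes, where 19.1% of 17267 genes changed: 4 were higher (8.69% of all genes) and 1 lower (10.4%). Mphosph6 (0.45, SE 0.08, adjusted p = 8.4e-05), Zcchc8 (0.48, SE 0.11, adjusted p = 0.00162), Rbm7 (0.34, SE 0.11, adjusted p = 0.0204) and Zc3h18 (0.27, SE 0.08, adjusted p = 0.0098) were higher in adult oocytes on the CPM scale and lower with ERCC scaling (-1.23, -1.21, -1.34 and -1.42). C1d was lower, at 2.44 ± 1.22 against 5.99 ± 2.98 CPM (-1.29, SE 0.34, adjusted p = 0.00586). ERCC scaling moved the median over all genes to -1.69, with 403 ± 48.5 reads on genes for each ERCC read in adult and 1270 ± 178 in p20 controls. The labels do not give the amount of ERCC RNA added to RiboMinus libraries, so on that scale a different amount added and a different amount of RNA per oocyte cannot be told apart between the ages. Sums per tag left 0 of the 5 calls, with 6 of 10 at an unadjusted p under 0.05. The labels do not say whether adult and p20 libraries were prepared together, so preparation and age cannot be told apart. Of the 10 Dis3 effects, that of Srrt alone differed between adult and p20, where 9.32% of all genes did (5.34% higher, 3.98% lower), and in sums per tag 0 of the 10 did (Srrt 1.21, adjusted p = 0.195). The count over all genes moved with the tag, from 1610 of 17267 to 634 of 18701 without AM1713 and to 3095 of 18890 without AM1757.

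Ordered by level on the CPM scale, Srrt in poly(A) libraries ran from 15.5 ± 2.90 CPM in MII controls through 27.2 ± 7.19 in GV and 28.6 ± 3.90 in GV3h controls to 50.5 ± 20.1 in MII, 93.8 ± 29.9 in GV and 142 ± 14.99 in GV3h Dis3 cKO. GV and GV3h controls did not differ beyond their spread (0.08, SE 0.22, adjusted p = 0.912), and the ranges of the GV and MII knockouts overlapped. With ERCC scaling the order turned, since the MII Dis3 cKO mean (28.1) lay below those of GV (40.8) and GV3h controls (49.5). In RiboMinus libraries the order in CPM ran from adult control (36.6 ± 6.18) and p20 control (40.5 ± 3.23) through p20 Dis3 cKO (59.0 ± 10.8) and p20 Exosc10 cKO (66.4 ± 8.74) to dcKO (108 ± 14.6) and adult Dis3 cKO (129 ± 46.4). With ERCC scaling the adult Dis3 cKO mean (49.0) lay instead below those of all 4 p20 groups (67.8 in controls to 173 in dcKO). Adult and p20 controls did not pass the test against each other on the CPM scale (-0.14, SE 0.14, adjusted p = 0.526), and with ERCC scaling adult controls were lower (-1.81, adjusted p = 1.85e-09), near the median over all genes of -1.69.

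The genes whose log2(CPM + 1) level was most like that of Srrt were named without regard to function. Over 71 poly(A) libraries the 5 highest Pearson correlations were with Gm5737 (0.90), Pomc (0.89), Gm42668 (0.87), Gm2915 (0.86) and AC154766.4 (0.86). Over 48 RiboMinus libraries they were with 4732416N19Rik (0.94), Cdc34b (0.92), 2610017A05Rik (0.92), Gm11190 (0.91) and 4632404H12Rik (0.91). The 2 lists of the 100 closest genes shared 21, of which 13 had a RefSeq entry and 7 of those 13 were typed as long noncoding RNA (53.9%, beside 9.11% and 7.94% of tested genes with an entry in poly(A) and RiboMinus libraries). These values describe libraries that share genotype and stage, so they carry no test.

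Around the adaptors, 17 of 18 listed nuclear partners were tested. In dcKO 7 of the 17 rose and 4 fell, where 26.6% of all genes rose and 27.1% fell. Pabpc1, a mainly cytoplasmic poly(A)-binding protein, changed most (1.48, SE 0.23, adjusted p = 1.86e-06). The nuclear poly(A)-binding protein gene Pabpn1 did not pass there against controls. In Dis3 cKO the partners gave 3 higher and 1 lower at GV (21.9% of all genes changed), 5 and 2 at GV3h (38.6%), 3 and 5 at MII (42.1%), 1 and 4 in adult oocytes (28.1%) and 1 and 0 at p20 (7.37%). In Exosc10 cKO they gave 2 and 1 (7.45%). Nrde2, a nuclear partner of MTR4, changed most at GV (1.31, SE 0.42, adjusted p = 0.0158) and GV3h (1.77, SE 0.42, adjusted p = 0.000572). Ncbp2, the small cap-binding subunit, was the 1 partner that rose in p20 Dis3 cKO (0.52, SE 0.10, adjusted p = 0.000317).

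Of the exosome genes, with both targets counted among them, dcKO gave 1 higher and 5 lower of 11 tested, beside the same 26.6% and 27.1% of all genes, and Dis3 and Exosc10 themselves are 2 of the 5. The list for the cytoplasmic SKI complex held 4 genes, Skiv2l, Ttc37, Wdr61 and its partner Hbs1l. Of these, 3 rose and 1 fell in dcKO, where 53.7% of all genes changed. Wdr61 changed most (1.53, SE 0.24, adjusted p = 2.81e-06). None of the 4 passed in edgeR's test of either single knockout at p20, where 7.37% (Dis3 cKO) and 7.45% (Exosc10 cKO) of all genes did. In GV3h Dis3 cKO 2 of the 4 rose, Skiv2l (0.95, SE 0.24, adjusted p = 0.00115) and Wdr61, and 0 fell, where 38.6% of all genes changed. At MII 0 of the 4 rose in Dis3 cKO and Ttc37 fell (-0.51, SE 0.09, adjusted p = 1.18e-05), where 42.1% of all genes changed. In GV Dis3 cKO 0 of the 4 passed, where 21.9% of all genes did, and 0 passed in adult Dis3 cKO, where 28.1% did. The median log2 fold change in dcKO was -0.01 for the 10 adaptors, 0.25 for the nuclear partners, -0.26 for the exosome genes and 0.78 for the SKI genes, beside -0.01 for all genes.

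CUT&Tag peak lists, called per library, were read within 1 kb of the start site of 9 genes, all except Zc3h3, and a gene counted where 2 of the 3 lists of its group had a peak. H3K27me3, a repressive histone mark, was mapped in adult and p20 controls, adult Dis3 cKO and p20 dcKO. It had no peak at any of the 9 in any list, where each list had one at 11.5% to 22.6% of 11605 genes. RNA polymerase II (Pol II) was mapped in adult and p20 controls and in adult Dis3 cKO, so no p20 knockout stands beside the p20 controls. Its libraries are titled pols2s5, which reads as a phosphorylated form, so a missing peak does not mean that polymerase was absent. Pol II had a peak at Srrt in 3 of 3 p20 control lists, as did 3.76% of genes, while 10.1% of genes had one in at least 2 lists. Counted from the start site, the Srrt peak reached from base -1895 to 11 in list 1, from -309 to 112 in list 2 and from -1442 to 181 in list 3. The authors' total signal of the peak exceeded that of 98.4%, 41.1% and 98.3% of the peaks in its list. In adult control (2.94% of genes) and adult Dis3 cKO (8.63%) none of the 9 met the rule, and with a window of 2 kb, which takes in 15.5% of genes, Zcchc8 and Srrt did in adult Dis3 cKO. The lists differed in length, from 19697 to 122606 peaks for Pol II and from 87394 to 299716 for H3K27me3. More or fewer genes with a peak is therefore not a measured change.

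Some counts could hold reads of a neighbour, because no source used here says whether counting took strand into account. Mtrex shares 115 bases with Plpp1 and Ncbp1 shares 215 bases with Tstd2. Zc3h18 shares 521 bases with Gm39270, whose level was not analysed here, and Zc3h3 shares 131 bases with Gm23747, which was at 0 CPM in all libraries. Plpp1 averaged 41.0 CPM in poly(A) and 14.5 CPM in RiboMinus libraries, and Tstd2 averaged 9.65 and 10.9 CPM. Srrt overlaps the microRNA gene Mir7036, also at 0 CPM throughout.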

How the data were processed

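The authors deposited, for each library, 1 table of raw counts over Ensembl genes and 1 of counts over ERCC RNAs. Per the submitters' processing notes the tools included cutadapt 2.5, STAR 2.7.2a, SAMtools 1.9, HTSeq 0.9.1 and DESeq2 1.24.0 with build mm10; the annotation release and the use of strand are not given in the sources used here. CUT&Tag peak lists hold the authors' deposited total signal per peak, and SEACR is named in the same notes.

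Members and gene lists were chosen with earlier results of these data known. All 10 members are named, ordered by role, and from each pathway list the called gene with the largest fold change may be named. Counts were fitted with edgeR 4.0.16 in R 4.3.3 (TMM, filterByExpr, quasi-likelihood F test, Benjamini-Hochberg, threshold 0.05): the 6 poly(A) groups in 1 fit, the adult pair, the 4 p20 groups, and all RiboMinus groups for age. SE is the log2 fold change over the square root of F. Gene symbols matched 99.7% of IDs in poly(A) and 99.4% in RiboMinus files. Likeness used log2(CPM + 1). Alternatives were RLE and ERCC scaling, DESeq2 1.42.0, no low-count filter, smaller fits, title numbers as a block, sums per title tag and left-out libraries. The test was also run on simulated counts, but the outcome is not given here, so it adds nothing to the calls above.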

Additional observations from a re-analysis of the deposited data

Results flagged for a closer look

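Over 90 sets of 8 values (each gene in each group of 8 libraries), 3 held a library far from the other 7, which chance alone gives in about 1 of 20 sets, and the same library accounts for 2 of the 3. GV control library 1 had Rbm7 at 206.8 CPM, with the next at 161.3, and the same library had Srrt at 12.26 CPM, with the next at 25.39. The p20 control library 1_3 had Srrt at 47.48 CPM, with the next at 41.99. Without GV control library 1 the Srrt rise in GV Dis3 cKO kept its call, and without library 1_3 all p20 calls of Srrt were kept.

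The effect of Dis3 loss differed between groups for 3 genes by an interaction term. C1d had a larger effect at GV3h than at GV, by 2.40 on the log2 scale (edgeR, adjusted p = 0.0117), and by 1.85 without GV control library 2 (adjusted p = 0.0816). Mphosph6 had a larger effect at MII than at GV, by 0.42 (edgeR, adjusted p = 0.0491), but lost the call in 10 of 12 alternatives, among them without MII egg 15 (0.34, adjusted p = 0.0648). Srrt had a larger effect in adult than in p20 oocytes, by 1.27 (edgeR, adjusted p = 1.43e-05), and the parts of title tag, library preparation and age in that difference cannot be told apart.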

How the results depend on the processing

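Of 150 results (gene and comparison), 55 passed the test, and of their 510 values under alternatives 443 kept direction and call, 57 kept direction without the call and 10 turned. The 10 turned values came with ERCC scaling: -0.87 for Zcchc8, -1.10 for Zfc3h1, -1.38 for Zc3h3, -1.21 for Zc3h18 and -0.39 for Mphosph6 from GV to MII in controls, -0.13 for Zfc3h1 in adult Dis3 cKO (itself not called), and -1.21 for Zcchc8, -1.34 for Rbm7, -1.42 for Zc3h18 and -1.23 for Mphosph6 from p20 to adult. Of 900 values of results that had not passed, 32 passed in the same direction, 64 changed sign without passing, and 4 passed in the other direction, also with ERCC scaling: -0.50 for Rbm7 and -0.52 for Mphosph6 in adult Dis3 cKO, and -1.55 for Zfc3h1 and -1.29 for Zc3h3 from p20 to adult.

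Leaving out GV control library 1 or 2, GV Dis3 cKO library 16, the 4 libraries or a title tag was chosen after seeing the data. The number of genes called moved with ERCC scaling to 3 in GV3h Dis3 cKO (4896 of all 17389 genes), 6 in adult Dis3 cKO (1 higher, 5 lower; 6843 of all 15334 genes), 0 in p20 Dis3 cKO (1 at an unadjusted p under 0.05; 968 of 15882), 1 in Exosc10 cKO (364 of 15882), 10 from p20 to adult (all lower; 14869 of 17267; the ERCC amount per set is not in the labels), 10 from GV to MII (from 7; all lower; 15275 of 17389) and 4 for the MII minus GV effect (5237 of 17389; also Rbm7 1.06, Zc3h3 0.85 and Zc3h18 0.90). Over all genes, ERCC scaling moved the share of calls that were higher from 62.0% to 35.3% at GV, 64.8% to 89.7% at MII, 55.9% to 10.2% in adult and 49.0% to 12.8% in p20 Dis3 cKO, 38.8% to 0.38% from GV to MII and 45.6% to 0.484% from p20 to adult. It moved that share from 50.5% to 73.1% for dcKO against Dis3 cKO. For the effect of Dis3 loss it moved from 70.5% to 97.7% for MII minus GV and from 67.3% to 90.0% for GV3h minus GV. In MII Dis3 cKO the 5 calls became 3 with RLE scaling, DESeq2, title numbers 1 to 8 with or without the replicate block, or without GV control library 1, and 2 without the low-count filter or with the 2 groups fitted alone. The call of Mphosph6 for MII minus GV became 0 (1 or 2 genes at an unadjusted p under 0.05) with RLE, DESeq2, no filter, the 2 stages fitted alone, numbers 1 to 8 with or without the replicate block, and without MII Dis3 cKO library 15, GV Dis3 cKO library 16, or GV control library 1 or 2. For GV3h minus GV the 1 call became 2 without the 4 libraries unlike their group (830 of all 17216 genes). It became 0 without GV control library 2 (141 of all 17632 genes, with 2 of the 10 at an unadjusted p under 0.05). Sums per title tag gave 0 calls in adult Dis3 cKO (0 of all 20190 genes) and p20 Dis3 cKO (286 of 20911), with 2 each at an unadjusted p under 0.05, from p20 to adult (6 at that p; 237 of 22815) and for the adult minus p20 effect (1; 70 of 22815), and 1 in Exosc10 cKO (174 of 20911). The Pol II count in adult Dis3 cKO became 2 with a window of 2 kb, as the share of all genes went from 8.63% to 15.5%. Except where values show it, the cause was not tested.

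Title numbers gave no clear sign of pairing: correlations of same-numbered deviations ran from -0.27 to 0.24, and at most 3 of 8 pairs in a comparison were over 0.1. These values do not show whether libraries share an animal, and adult RiboMinus groups were not in this check. With the replicate block, p20 gave 1 call in Dis3 cKO, 2 in Exosc10 cKO and 7 in dcKO, as without it.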
